A study of Mus musculus with 2 samples.

Results

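The Ly49 receptors are C-type lectin-like receptors of mouse natural killer (NK) cells, encoded by the Klra genes. The members described here are Klra1, Klra3, Klra4, Klra5, Klra6, Klra7, Klra8 and Klra9, which encode Ly49A, Ly49C, Ly49D, Ly49E, Ly49F, Ly49G, Ly49H and Ly49I in that order. They were chosen by name as 8 of the 31017 gene symbols in the deposited table, and 3 further Klra symbols in it served for comparison. Their UMIs (unique molecular identifiers, each counting 1 captured RNA molecule) were read in 390 NK cells of 6588 cells that passed the filters. A cell was gated as NK when it had at least 1 UMI of Ncr1 or Klrb1c, which encode the NK receptors NKp46 and NK1.1, and at most 1 UMI of the T cell genes Cd3d, Cd3e and Cd3g together.

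The study profiled spleen cells by 10x Genomics droplet 3′ RNA sequencing from mice 6 to 8 weeks old. The labels name 1 WAS-KO sample, a model of Wiskott-Aldrich syndrome, and 1 WT sample, and the titles carry the numbers 660 and 664. The counts came as 1 table of 7524 barcodes in which nothing ties a barcode to either sample, so it was treated as 1 pooled sample and WAS-KO was not compared with WT. All differences below are between cells of this pool, with no replicate, and carry 95% intervals that cover counting error only.

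As background, inhibitory Ly49 receptors bind class I major histocompatibility complex (MHC) proteins on other cells. They recruit the phosphatases SHP-1 (Ptpn6), SHP-2 (Ptpn11) and SHIP (Inpp5d) through a tyrosine motif, the ITIM, in their cytoplasmic tail. Activating Ly49 receptors lack that tyrosine and carry a basic residue in the membrane-spanning part that pairs with the adaptor DAP12, encoded by Tyrobp. Each NK cell is known to express a subset of the genes of its locus, so that neighbouring cells differ in their receptors. Among the activating members, Ly49H is known for recognising a cytomegalovirus protein and Ly49D for binding certain class I allotypes.

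The coding sequences show which of the 8 members belong to which kind. The lines below give the coding start of each member from GENCODE vM21 transcripts on GRCm38, read 5′ to 3′ on the minus strand, with codon 8 in capitals. It encodes the ITIM tyrosine in 6 members and phenylalanine in Klra4 and Klra8.
Klra4 at chr6:130065267-130065302: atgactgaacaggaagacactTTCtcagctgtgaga
Klra8 at chr6:130128125-130128160: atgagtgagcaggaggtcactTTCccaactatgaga
Klra1 at chr6:130380627-130380662: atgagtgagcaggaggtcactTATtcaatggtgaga
Klra3 at chr6:130335764-130335799: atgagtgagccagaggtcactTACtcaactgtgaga
Klra5 at chr6:129911426-129911461: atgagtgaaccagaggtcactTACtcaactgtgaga
Klra6 at chr6:130025184-130025219: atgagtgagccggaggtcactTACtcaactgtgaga
Klra7 at chr6:130231582-130231617: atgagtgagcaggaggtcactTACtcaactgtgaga
Klra9 at chr6:130191266-130191301: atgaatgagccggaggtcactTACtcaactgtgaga

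The membrane-spanning stretch around codon 57, in capitals, separates the same members. The codon is arginine in Klra4 and Klra8 and leucine in Klra1, Klra3, Klra5, Klra6, Klra7 and Klra9.
Klra4 at chr6:130063122-130063154: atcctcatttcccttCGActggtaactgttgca
Klra8 at chr6:130126239-130126271: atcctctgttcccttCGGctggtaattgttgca
Klra1 at chr6:130379009-130379041: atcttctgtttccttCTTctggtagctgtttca
Klra3 at chr6:130334231-130334263: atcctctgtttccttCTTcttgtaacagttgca
Klra5 at chr6:129909878-129909910: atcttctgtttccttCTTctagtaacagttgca
Klra6 at chr6:130023654-130023686: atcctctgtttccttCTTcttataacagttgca
Klra7 at chr6:130229951-130229983: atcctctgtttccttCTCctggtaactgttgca
Klra9 at chr6:130189714-130189746: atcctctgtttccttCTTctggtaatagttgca

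Klra4 and Klra8 are therefore called activating and the other 6 inhibitory, and all 16 windows lie in coding exons. The 8 genes lie in the same orientation on chromosome 6 between 129898996 and 130386874, a span of 487.879 kb, in the order Klra5, Klra6, Klra4, Klra8, Klra9, Klra7, Klra3 and Klra1. Their coding sequences were 75.4% (Klra3 and Klra4) to 95.9% (Klra3 and Klra9) identical over the 28 pairs. In the last 400 bases of the transcripts, which 3′ libraries read, 33.9% of the 50-base windows of Klra3 occurred unchanged in Klra9, and 15.7% of those of Klra8 did. Of the windows of Klra9, 41.3% occurred in another Klra gene. Klra1, Klra4, Klra5, Klra6 and Klra7 shared no such window with another member. Reads from the shared stretches cannot be told apart by sequence, so the split of counts among Klra3, Klra8 and Klra9 is less certain than that of the other members.

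In the NK gate the family was abundant: 325 of 390 cells (83.3%, interval 79.3 to 86.9) held a Ly49 UMI, and the 5700 family UMIs came to 2269 CPM (2210 to 2329), UMIs scaled to 1000000 per gate. In B cell-like cells, taken for comparison, 79 of 2918 cells (2.71%, 2.15 to 3.36) held a Ly49 UMI. Depth was similar in both, with a median of 4739.5 UMIs in the NK gate and 5143 in the B cell-like cells. Thinned to 1000 UMIs each, 75.1% of NK-gate cells and 0.413% of B cell-like cells held a Ly49 UMI.

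The NK gate was not uniform. Of 8 further NK markers (Klrd1, Klrk1, Nkg7, Eomes, Gzma, Prf1, Tyrobp and Il2rb), 334 cells held UMIs of 6 or more, and 322 of these (96.4%, 93.8 to 98.1) held a Ly49 UMI, at 3042 CPM. The remaining 56 cells held fewer than 6, 48 of them 2 or fewer, and 3 of the 56 held a Ly49 UMI (5.36%, 1.12 to 14.9). Among those 56 cells, 33 had at least 2 UMIs of the B cell genes Cd79a and Ms4a1, against 32 of the 334. The pairs of members and the NK cell states below are therefore given for the 334 marker-rich cells, a subset chosen after the values were seen. The patterns of members are given for all 390 cells, and the 56 cells hold 6 of the 5700 family UMIs.

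All 8 members were at least 4-fold higher in the NK gate than in the 6198 cells outside it. Of the 12306 genes with at least 30 UMIs over both, 2.88% were at least 4-fold higher and 3.66% at least 4-fold lower. Klra5, with 12 UMIs outside the NK gate, reached that minimum through the NK cells, and the other 7 members had at least 78 UMIs outside. The summed family was 89.9-fold higher (84.2 to 96.1), while the median log2 ratio over all tested genes was 0.23. With no Cd3 UMI allowed in the NK gate it was 59.8-fold, since the cells left out then count as outside cells. The activating members had the largest ratios, with Klra4 at 232-fold (188 to 291) and Klra8 at 140-fold (120 to 165). Klra3 was 85.2-fold higher, Klra9 80.2-fold, Klra7 72.3-fold, Klra5 64.5-fold and Klra1 30.5-fold. Klra6 had the smallest ratio at 8.19-fold (5.41 to 12.2), and 78 of its 116 UMIs in the kept cells lay outside the NK gate.

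**Figure D1:**
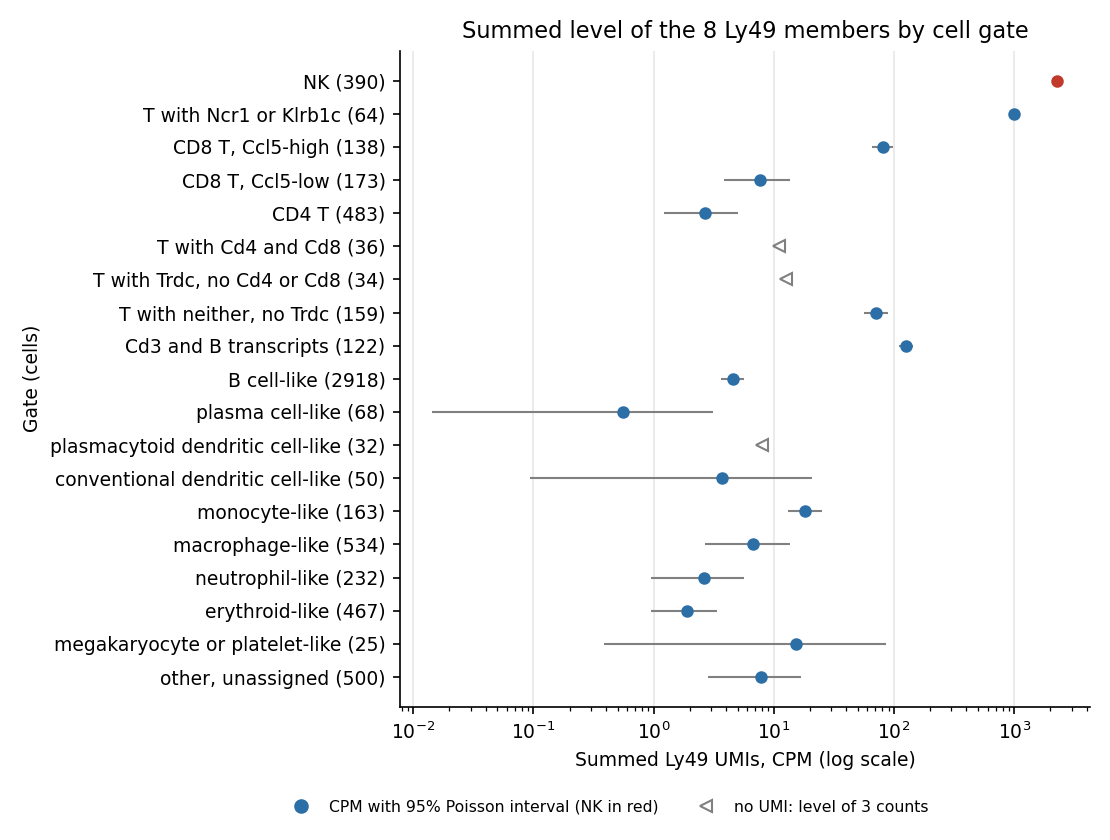
Summed level of the 8 Ly49 members in CPM (log axis) for each cell gate, with the number of cells in brackets; points carry 95% Poisson intervals and open triangles mark the level of 3 counts where no UMI was found. The NK gate lies highest at 2269 CPM, T cells with Ncr1 or Klrb1c follow at 988 CPM, and B cell-like cells lie at 4.58 CPM.

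Among activating members, Klra8 (Ly49H) reached 571 CPM in the NK gate (542 to 602; 1435 UMIs) and Klra4 (Ly49D) 501 CPM (473 to 529; 1258 UMIs). Klra8 was detected in 195 cells (50%) and Klra4 in 159 (40.8%). Cells that held either one held several copies: positive cells had 1 to 40 UMIs of Klra8 and 1 to 26 of Klra4, with a median of 7 for both. In 74.8% of the Klra4-positive and 66.7% of the Klra8-positive cells the count was at least 5.

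Klra7 (Ly49G) led the inhibitory members with 522 CPM (494 to 551; 1311 UMIs) and was the most widespread member, in 236 cells (60.5%). Klra9 (Ly49I) followed with 351 CPM (328 to 375) in 184 cells (47.2%), and Klra3 (Ly49C) with 202 CPM (185 to 220) in 137 cells (35.1%). Klra1 (Ly49A) stood at 88.8 CPM (77.5 to 101) in 51 cells (13.1%). Positive cells held a median of 4 UMIs of Klra7, Klra9 or Klra1 and 3 of Klra3. These levels are UMIs of 3′ tags, in which a transcript's length does not multiply its count, so they are compared between members without a length correction.

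Klra5 (Ly49E) and Klra6 (Ly49F) were rare in different ways. Klra5 gave 18.3 CPM (13.4 to 24.4) from 46 UMIs in 8 cells (2.05%), with a median of 6.5 UMIs per positive cell. Klra6 gave 15.1 CPM (10.7 to 20.8) from 38 UMIs in 19 cells (4.87%), with a median of 1 UMI. Klra5 was thus well expressed in few cells, while 12 of the 19 Klra6-positive cells held 1 UMI.

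In order of level the members ran Klra8, Klra7, Klra4, Klra9, Klra3, Klra1, Klra5 and Klra6. The intervals of Klra8 and Klra7 overlapped, as did those of Klra7 and Klra4 and of Klra5 and Klra6. All other neighbours in the order had separate intervals, which do not cover the uncertain counts of Klra3, Klra8 and Klra9 from shared sequence. The inhibitory members together made up 52.8% of the family UMIs (51.5 to 54.1) and the activating members 47.2% (45.9 to 48.5).

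**Figure D2:**
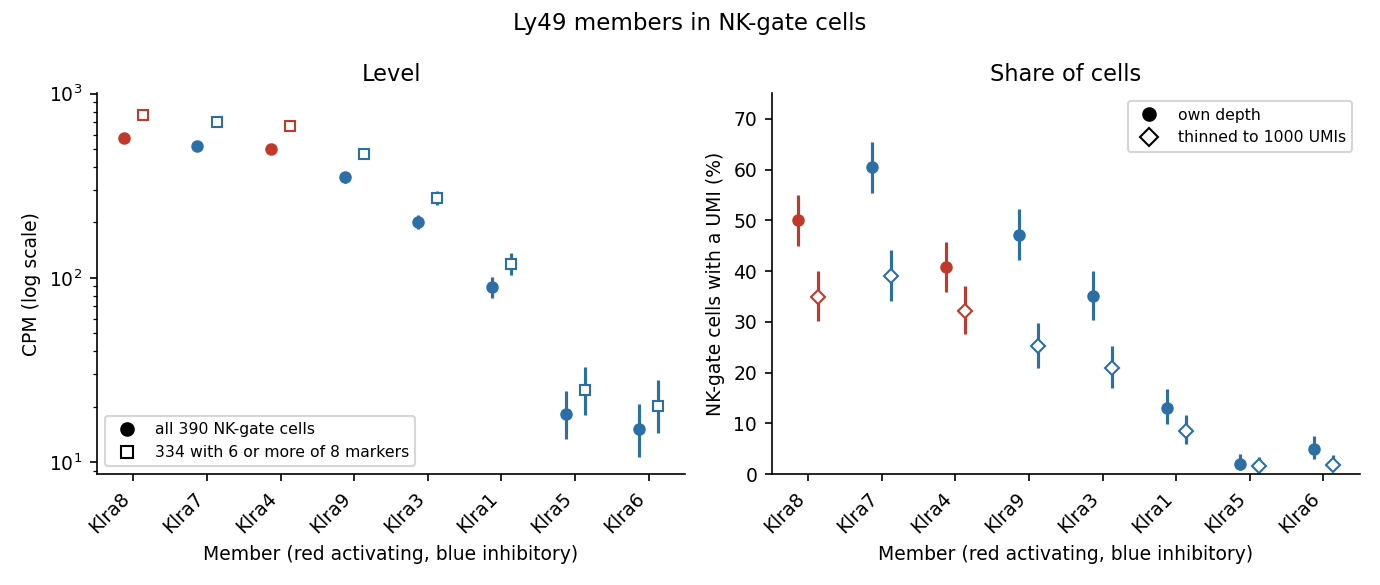
Left, level of each member in CPM (log axis) in all 390 NK-gate cells and in the 334 with 6 or more of 8 further NK markers; right, share of NK-gate cells with a UMI at their own depth and thinned to 1000 UMIs; error bars are 95% Poisson (left) and Clopper-Pearson (right) intervals. Klra8 had the highest level at 571 CPM, whereas Klra7 was found in the most cells, 60.5%.

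Individual NK cells held combinations of members. In the NK gate 65 cells held none, 33 held 1, 76 held 2, 94 held 3, 91 held 4, 28 held 5 and 3 held 6 members. Thus 292 cells (74.9%, 70.3 to 79.1) held at least 2 members, and 87.4% (83.4 to 90.8) of the marker-rich cells did. Thinned to 1000 UMIs, 54.5% (49.4 to 59.5) of NK-gate cells still held at least 2.

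Family UMIs rose with the number of members, which is called from those same UMIs. NK-gate cells with 1 member had a median of 4 family UMIs, those with 2 had 10.5, those with 3 had 17, those with 4 had 22 and those with 5 had 24.5. Divided by the number of members, the median was 4 UMIs per member in cells with 1, 5.25 with 2, 5.67 with 3, 5.5 with 4 and 4.9 with 5. Median depth in these groups lay between 4363 and 4974 UMIs. The 3 cells with 6 members had a median of 50 family UMIs and 8.33 per member, at a median depth of 7589 UMIs.

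Many patterns of members were detected, with a member called from 1 UMI. Of the 256 possible on-off patterns of 8 genes, 74 occurred among the 390 NK-gate cells, and 27 of them in 1 cell only. A missed member changes a cell's pattern, and the mean number of members fell from 2.54 to 1.64 when cells were thinned to 1000 UMIs. How many of the 74 patterns are distinct combinations was not tested. The most frequent pattern with a member was Klra4, Klra7, Klra8 and Klra9 together, in 24 cells (6.15%, 3.98 to 9.02). Klra4 with Klra7 and Klra8 followed in 19 cells, Klra7 with Klra8 and Klra9 in 18, and Klra3 with Klra4, Klra7 and Klra8 in 16. Of the 33 cells with 1 member, 14 held Klra9, 9 held Klra7, 5 held Klra3, 3 held Klra8 and 2 held Klra4. Klra1, Klra5 and Klra6 were never the lone member of an NK-gate cell.

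Activating and inhibitory members were often found in the same cell. An inhibitory member was found in 317 of the 390 NK-gate cells (81.3%, 77.1 to 85.0) and in 94.3% of marker-rich cells. Whether the overlap exceeds what these shares give was not tested. Both kinds were found in 236 NK-gate cells (60.5%, 55.5 to 65.4), inhibitory members only in 81 (20.8%, 16.9 to 25.1), and activating members only in 8 (2.05%, 0.890 to 4.0). The last share depends on depth, since it was 11.1% (8.12 to 14.6) when cells were thinned to 1000 UMIs and 5.44% (3.40 to 8.20) at 2000. Klra4 and Klra8 were found together in 110 cells (28.2%, 23.8 to 33.0).

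**Figure D3:**
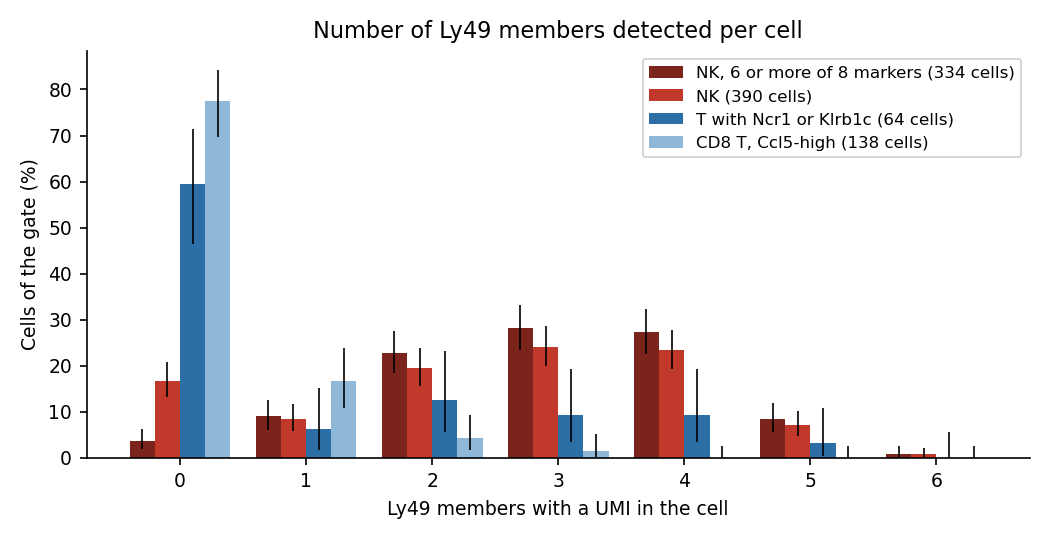
Number of Ly49 members with a UMI in a cell, as a percentage of the cells of each gate at their own depth, with 95% Clopper-Pearson intervals. NK cells peak at 3 to 4 members, while 77.5% of Ccl5-high CD8 T cells and 59.4% of T cells with Ncr1 or Klrb1c held none.

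For each of 21 pairs of members without the rare Klra5, the share of cells with the second member was compared between cells with and without the first. In all 390 NK-gate cells, 20 of the 21 shares were higher in cells with the first member, 7 of them with intervals that did not overlap. After thinning to 1000 UMIs these counts were 18 and 2, for Klra4 with Klra8 (52% with and 26.9% without Klra4) and Klra7 with Klra8 (46.7% with and 27.4% without Klra7). These counts include the 56 cells with fewer NK markers, of which 53 held no member. In the 334 marker-rich cells at their own depth, 13 of the 21 shares were higher in cells with the first member, 3 of them with intervals that did not overlap, and none was lower with separate intervals. Those 3 joined Klra4, Klra7 and Klra8. Klra8 was found in 65.1% (58.6 to 71.2) of cells with Klra7, against 42.4% (32.6 to 52.8) of cells without it. Klra8 was found in 69.6% (61.8 to 76.7) of cells with Klra4, against 48.3% (40.7 to 55.9) without. Klra7 was found in 80.4% (73.3 to 86.3) of cells with Klra4, against 61.4% (53.7 to 68.6) without.

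With marker-rich cells thinned to 1000 UMIs, 1 of these 3 kept separate intervals: Klra8 was found in 50% (40.8 to 59.2) of cells with Klra4, against 33.5% (27.2 to 40.3) without. For Klra4 and Klra7 the thinned shares were 52.5% (43.2 to 61.6) with and 37.7% (31.2 to 44.6) without, and for Klra7 and Klra8 they were 42.4% (34.2 to 50.9) with and 37.4% (30.5 to 44.7) without. For Klra3 and Klra9, which share the most sequence, Klra9 was found in 50.4% (41.7 to 59.0) of cells with Klra3 and 57.9% (50.6 to 64.9) without at own depth, and in 33.8% (23.0 to 46.0) and 30% (24.6 to 36) after thinning. The intervals of that pair overlapped at both depths, and its direction differed between them. Thinning was 1 random draw, made separately for all NK-gate cells and for marker-rich cells. How far the thinned shares vary between draws was not tested. All 8 cells with Klra5 also held Klra8, with an interval of 63.1 to 100%. Klra8 was found in 57.4% (51.8 to 62.8) of the marker-rich cells without Klra5. Thinned to 1000 UMIs, 4 of 4 marker-rich cells with Klra5 held Klra8 (39.8 to 100%), against 38.8% (33.5 to 44.3) without. In the thinned NK gate 4 of 6 did (66.7%, 22.3 to 95.7), against 34.5% (29.7 to 39.5) without. The intervals overlapped in both.

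NK cells mature in the spleen through a Cd27-positive stage to an Itgam-positive (CD11b), Klrg1-positive stage. Among marker-rich cells, 187 held Itgam but no Cd27 UMI and 30 held Cd27 but no Itgam UMI. The family sum was nearly equal, 3192 CPM in Itgam-only cells and 3188 CPM in Cd27-only cells (log2 ratio 0.00, -0.12 to 0.13). For some members the levels differed past the counting interval, which treats UMIs as independent and leaves out the spread between cells. In Cd27-only cells the 48 Klra9 UMIs came from 11 cells and the 32 Klra3 UMIs from 9. Klra9 averaged 618 CPM in Itgam-only cells and 246 CPM in Cd27-only cells (log2 ratio 1.33, 0.91 to 1.79), and Klra3 averaged 300 CPM in Itgam-only and 164 CPM in Cd27-only cells (0.87, 0.34 to 1.45). Klra8 averaged 766 CPM in Itgam-only cells and 1013 CPM in Cd27-only cells (-0.40, -0.63 to -0.17), and Klra7 averaged 678 CPM in Itgam-only and 839 CPM in Cd27-only cells (-0.31, -0.56 to -0.05). The intervals of Klra1, Klra4, Klra5 and Klra6 included 0. Shares of cells with a UMI had overlapping intervals for each of Klra9, Klra3, Klra8 and Klra7. In Itgam-only cells they were 62.0% (54.7 to 69.0) for Klra9, 42.2% for Klra3, 55.1% for Klra8 and 70.1% for Klra7. In Cd27-only cells they were 36.7% (19.9 to 56.1) for Klra9, 30% for Klra3, 63.3% for Klra8 and 76.7% for Klra7. Median depth was 4592 UMIs in Itgam-only and 5994 UMIs in Cd27-only cells. Member levels also moved with depth: marker-rich cells below the median depth had 391 CPM of Klra3, 676 CPM of Klra9 and 973 CPM of Klra8, against 209 CPM, 365 CPM and 661 CPM of these genes in those at or above it. The Klra3 and Klra9 differences thus run the same way as their differences by depth and the Klra8 difference the opposite way, and the part of depth was not tested.

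The split by Klrg1, a receptor of mature NK cells, gave the same directions for Klra3, Klra9, Klra7 and Klra8. Klra3 was higher in the 165 marker-rich cells with a Klrg1 UMI than in the 169 without (log2 ratio 0.52, 0.26 to 0.78), and so was Klra9 (0.40, 0.21 to 0.60). Klra7 (-0.34, -0.50 to -0.18), Klra8 (-0.22, -0.37 to -0.06) and Klra4 (-0.20, -0.36 to -0.04) were lower. The summed family had a log2 ratio of -0.07 (-0.15 to 0.00), and median depth was 4737 UMIs in Klrg1-positive and 4557 UMIs in Klrg1-negative cells. Klra9 was detected in 63.6% (55.8 to 71.0) of Klrg1-positive and 46.2% (38.5 to 54.0) of Klrg1-negative cells. Klra3 was detected in 49.1% (41.2 to 57.0) of Klrg1-positive and 33.1% (26.1 to 40.8) of Klrg1-negative cells. For Klra7, Klra8 and Klra4 the intervals of these shares overlapped. They were detected in 69.7%, 55.8% and 44.2% of Klrg1-positive cells and in 71.0%, 60.9% and 50.3% of Klrg1-negative cells. The splits by Itgam and by Klrg1 use the same 334 cells and are not independent of each other.

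The 13 marker-rich cells with at least 2 UMIs of the cell division genes Mki67 and Top2a had a family level of 1573 CPM, against 3193 CPM in the other 321 cells (log2 ratio -1.02, -1.20 to -0.85). Klra3 (-2.22), Klra8 (-2.0), Klra9 (-1.40) and Klra4 (-0.80) were lower, with intervals that left out 0, while the interval of Klra7 (-0.25, -0.56 to 0.04) included it. Klra3 had 11 UMIs in 3 of the 13 cells, and these intervals leave out the spread between cells. These 13 cells were deeper, with a median of 12270 UMIs against 4592 UMIs in the others. Among all marker-rich cells, those at or above the median depth had 2697 CPM of the family and those below it 3715 CPM, and the part of depth here was likewise not tested. A Ly49 UMI was found in 12 of the 13 cells with Mki67 and Top2a UMIs and 310 of the other 321. By member, the shares of cells with a UMI had overlapping intervals. In the 13 cells they were 23.1% for Klra3, 61.5% for Klra8, 53.8% for Klra9 and 53.8% for Klra4. In the other 321 cells they were 41.7% for Klra3, 58.3% for Klra8, 54.8% for Klra9 and 47.0% for Klra4.

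**Figure D4:**
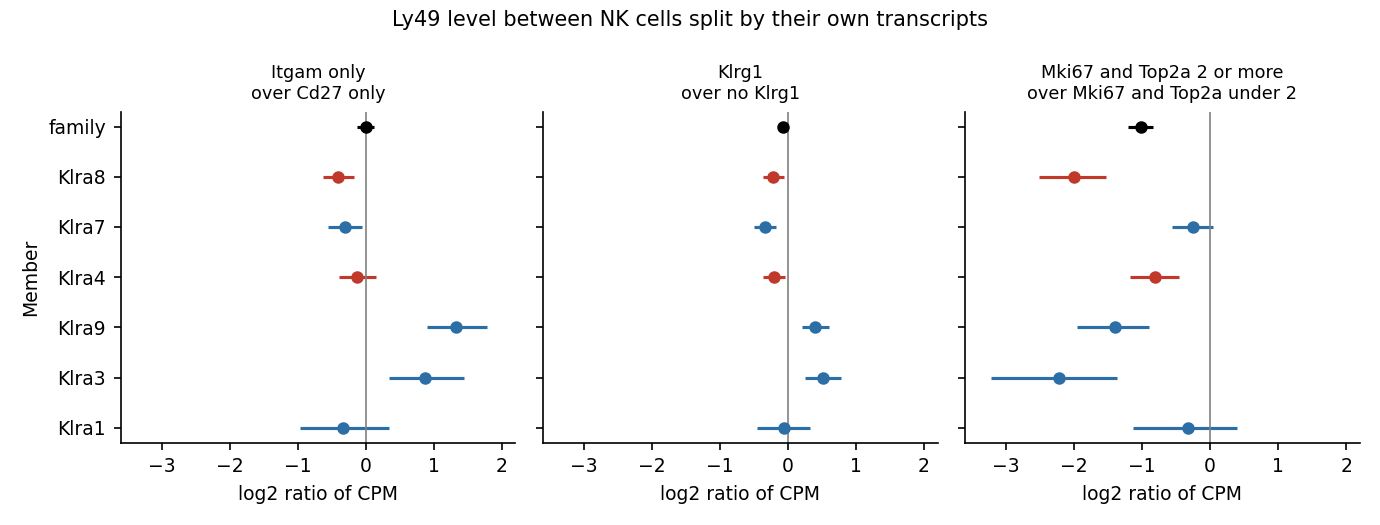
Log2 ratio of CPM with 95% intervals for the summed family (black), activating (red) and inhibitory (blue) members in 3 splits of the 334 marker-rich NK cells; Klra5 and Klra6, with few UMIs, are not drawn. Klra9 and Klra3 lie to the right of 0 in Itgam-only over Cd27-only cells and in Klrg1-positive over Klrg1-negative cells, where the family sum lies near 0.

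T cells were gated by at least 2 Cd3d, Cd3e and Cd3g UMIs and at most 1 UMI of Cd79a and Ms4a1. The 64 T cells that also held Ncr1 or Klrb1c, a mixture that can include NKT cells, carried the family at 988 CPM (903 to 1079), and 26 of them (40.6%, 28.5 to 53.6) held a Ly49 UMI. The family was 38.1-fold higher (32.2 to 45.1) there than in the other 1023 T cells. The ratio was 122-fold (48.3 to 397) for Klra4, 89.1-fold for Klra8, 60.5-fold for Klra9, 34.6-fold for Klra3, 28.1-fold for Klra7, 18.2-fold for Klra6 and 14.8-fold (8.46 to 25.7) for Klra1. Klra5 had 11 UMIs in the 64 cells and 0 in the other T cells. Few of the 64 cells set the ratios of the activating members. The 40 Klra4 UMIs came from 6 cells, 55% of them from 2 cells. The 105 Klra8 UMIs came from 10 cells, 50.5% of them from 2 cells. For Klra7 the top 2 cells held 18.8%. Over all 9475 tested genes, 1.03% were at least 4-fold higher and 2.06% lower. Klra7 was the 1 member with at least 30 UMIs in the other T cells, so 6 of the 7 members that reached that minimum over both groups did so with the help of the 64 cells, and no count of called members is read from it. Median depth was 6826.5 UMIs in the 64 cells and 6923 UMIs in the other T cells.

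Klra7 was the most widespread member in these 64 cells, in 20 of them with 1 to 14 UMIs (median 7.5), followed by Klra3, Klra8 and Klra9 in 10 each, Klra1 in 8, Klra6 in 7, Klra4 in 6 and Klra5 in 1. The family UMIs were 29.2% activating (25.3 to 33.5), against 47.2% in NK cells. All 26 Ly49-positive cells held an inhibitory member and 13 also held an activating member, while 244 of the 325 Ly49-positive NK cells (75.1%, 70.0 to 79.7) held an activating member. At least 2 members were found in 22 of the 64 cells, or 9 when thinned to 1000 UMIs.

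Tyrobp encodes the adaptor of the activating members and is also among the 8 NK markers. In these T cells it was detected in 13 of 13 cells with an activating member (75.3 to 100%), in 8 of 13 with inhibitory members only (61.5%, 31.6 to 86.1) and in 6 of 38 with no Ly49 UMI (15.8%, 6.02 to 31.3). Its level was 2676 CPM, 506 CPM and 47.4 CPM in the 3 sets, against 2951 CPM in NK cells with an activating member and 3097 CPM in NK cells with inhibitory members only. In the Ccl5-high CD8 T cells described below, the same 3 sets had 51.6 CPM, 40.6 CPM and 41.4 CPM. The 13 T cells with an activating member were also deeper, at a median of 9797 UMIs, all 13 held at least 6 of the 8 NK markers, and Scrublet called 3 of them doublets. For the cells with inhibitory members only, these values were 6944 UMIs, 5 of 13 cells and 0 calls. For the cells with no Ly49 UMI they were 6238 UMIs, 1 of 38 cells and 2 calls. Whether these barcodes hold RNA of an NK cell beside a T cell was not tested.

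CD8 T cells carried less of the family and mostly inhibitory members. The 138 CD8 T cells with at least 2 UMIs of Ccl5, a chemokine of memory and effector cells, held 80.8 CPM (66.1 to 97.8), against 7.66 CPM (3.83 to 13.7) in the 173 with fewer (10.5-fold, 5.66 to 21.8). A Ly49 UMI was found in 31 of the 138 (22.5%, 15.8 to 30.3) and 9 of the 173 cells (5.20%, 2.41 to 9.65), at median depths of 8887 UMIs in Ccl5-high and 8055 UMIs in Ccl5-low cells. Thinned to 1000 UMIs the shares were 7.25% in Ccl5-high and 0.578% in Ccl5-low cells. Klra7 had 35 UMIs in Ccl5-high and 2 in Ccl5-low cells (19.3-fold, 4.97 to 166), and Klra6 had 19 and 1. Klra7 alone reached 30 UMIs over both, and did so through the Ccl5-high cells, so nothing is read from its count beside the 1.82% of 7154 tested genes that were at least 4-fold higher.

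Klra7 and Klra6 led in the Ccl5-high cells, with 35 UMIs in 17 cells and 19 UMIs in 8 cells. Klra9 and Klra8 had 13 UMIs each, Klra1 12, Klra3 10 and Klra4 3, and Klra5 had none. By the limit of 3 counts, that allows up to 2.17% of these cells to hold a Klra5 UMI. Of the 13 Klra8 UMIs, 12 came from 1 cell. Klra6 made up 18.1% (11.3 to 26.8) of the family UMIs there and 6.25% (4.29 to 8.75) in T cells with Ncr1 or Klrb1c, against 0.667% (0.472 to 0.914) in NK cells. An activating member was found in 4 of the 31 Ly49-positive cells (12.9%, 3.63 to 29.8), against 244 of 325 in NK cells. Of the 31 cells, 23 held 1 member, 6 held 2 and 2 held 3, and Klra6 with Klra7 was the commonest pattern of 2 members, in 4 cells.

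The remaining T cells held little. In 159 T cells with neither Cd4, Cd8a, Cd8b1 nor Trdc, 13 cells (8.18%, 4.43 to 13.6) held 74 family UMIs, 38 of Klra7 and 17 of Klra1, and 1 activating UMI. CD4 T cells held 9 family UMIs in 6 of 483 cells (1.24%, 0.457 to 2.68), at 2.66 CPM. None was found in 36 T cells with both Cd4 and Cd8 transcripts or in 34 with Trdc. By the limit of 3 counts, up to 8.33% of the cells with Cd4 and Cd8 and 8.82% of those with Trdc could hold a Ly49 UMI, which does not limit the share of cells that express a member. The 122 cells with both Cd3 and B cell transcripts held 125 CPM in 19 cells at a median depth of 11605.5 UMIs, and Scrublet called 43 of the 122 doublets.

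**Figure D5:**
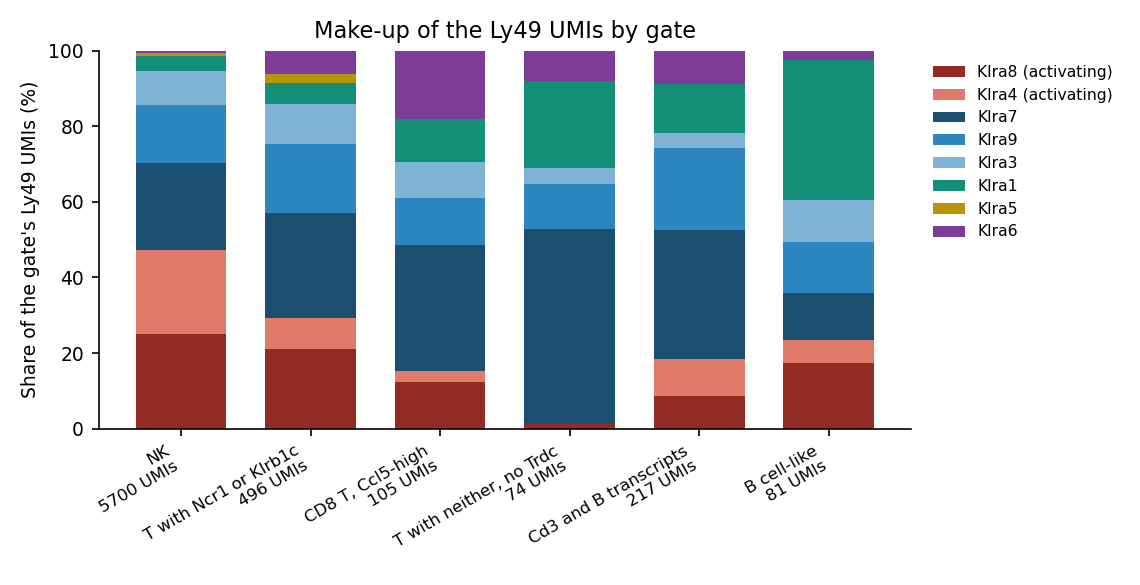
Share of each member in the gate's Ly49 UMIs (%), with the number of UMIs under each bar; activating members are at the base in red. Activating members make up 47.2% in NK cells, 29.2% in T cells with Ncr1 or Klrb1c and 15.2% in Ccl5-high CD8 T cells, and Klra1 makes up 37.0% in B cell-like cells.

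B cell-like cells held 81 family UMIs at 4.58 CPM, and 77 of the 79 positive cells held 1. Klra1 supplied 30 of the 81 UMIs (37.0%, 26.6 to 48.5), against 3.91% (3.42 to 4.45) of the NK family UMIs, so the mix of members differed from that of NK cells. Per cell, Klra1 was found in 29 of 2918 B cell-like cells (0.994%, 0.667 to 1.42), at 1.69 CPM against 88.8 CPM in NK cells. Of 40 family UMIs in 163 monocyte-like cells, 34 came from 1 cell that held at least 6 of the 8 NK markers. In the plasma, dendritic, macrophage, neutrophil, erythroid and platelet-like gates and the unassigned cells the family had 0 to 11 UMIs per gate.

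Among the other Klra genes, Klra2 and Klra17 followed a different pattern from the members. Klra2 (Ly49B), known from myeloid cells, reached 130 CPM (115 to 146) in monocyte-like cells, where 111 of 163 cells held it, and 44.7 CPM in macrophage-like and 16.9 CPM in neutrophil-like cells, against 8.76 CPM in NK cells. Klra17 (Ly49Q), known from plasmacytoid dendritic cells, reached 94.7 CPM (66.4 to 131) in plasmacytoid dendritic cell-like cells, in 15 of 32 cells, against 1.59 CPM in NK cells. Klra10 gave 13 UMIs in 13 NK-gate cells and 1 UMI outside. The Klra10 gene lies between Klra7 and Klra3, within the span of the 8 members.

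Genes of the signalling chain were described from fixed lists in the NK gate over the cells outside it, where the median log2 ratio over all 12306 tested genes was 0.23, 2.88% of them were at least 4-fold higher and 3.66% lower. Of 9 adaptors and phosphatases, 8 reached 30 UMIs and 2 were at least 4-fold higher, with a list median of 0.91: Tyrobp (log2 ratio 2.65, 2.61 to 2.69) and Sh2d1b1, which encodes the adaptor EAT-2 (2.85, 2.49 to 3.19). The phosphatase genes that the ITIM recruits had log2 ratios of -0.72 (Ptpn6, -0.85 to -0.59), 0.57 (Ptpn11, 0.33 to 0.80) and 0.40 (Inpp5d, 0.24 to 0.55). Tyrobp was detected in all 325 Ly49-positive NK cells, whether they held an activating member or not. None of the 6 class I genes was 4-fold different (list median 0.41), a list of H2-K1, H2-D1, B2m and the peptide-loading genes Tap1, Tap2 and Tapbp. H2-D1 and H2-K1, which encode class I ligands of the family, stood at 2327 CPM and 2957 CPM in the NK gate and at 1365 CPM and 1687 CPM outside it.

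Of 10 genes of transcription factors linked to Ly49 expression or NK development, 4 were at least 4-fold higher in the NK gate, where 2.88% of all tested genes were (list median 1.23): Eomes (4.40), Tbx21 (4.32), Id2 (3.20) and Nfil3 (2.02). Tcf7, known for its role in Ly49A acquisition, had a log2 ratio of -0.99 (-1.25 to -0.73). Of 15 NK maturation genes 9 were at least 4-fold higher and 0 lower (median 2.05), led by Prf1 (5.58), Klrg1 (5.11) and S1pr5 (4.69). Of 8 genes known from type 1 innate lymphoid cells 0 were higher and 1 was lower (median -0.07), the lower being Il7r (-2.37, -2.81 to -1.97).

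NK-gate cells with a Ly49 UMI were set against those without, 325 cells at a median depth of 4625 UMIs against 65 cells at 6406 UMIs. Of 7576 genes with at least 30 UMIs, 16.7% were at least 2-fold higher in the Ly49-positive cells and 7.93% at least 2-fold lower. Of the 5 highest ratios with at least 100 UMIs, ranked with 0.5 added to each count, Eomes (log2 ratio 4.53, 3.59 to 5.66) encodes the transcription factor of NK cells and Cma1 (4.06, 3.25 to 5.03) a mast cell type protease. The others were Khdc1a (167 UMIs against 0), Syne3 (4.39) and Arl4d (4.12). The 5 lowest were Jchain (-6.43), of plasma cells, Car1 (-6.06), of erythroid cells, and Ngp (-5.61), Ltf (-5.44) and Camp (-4.96), of neutrophil granules. Of the 65 cells, 53 held fewer than 6 of the 8 NK markers.

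Within the marker-rich cells the contrast was between 322 cells with a Ly49 UMI, at a median depth of 4623.5 UMIs, and 12 without, at 6796.5 UMIs. Here 10.2% of 6740 genes were at least 2-fold higher and 9.27% lower, with a median log2 ratio of -0.09. The lowest named ratios were Top2a (-2.74, -3.22 to -2.23), Ctsb (-2.46), Mki67 (-2.30, -2.87 to -1.69), Tuba1b (-2.28) and Cd160 (-2.24). Of the 13 marker-rich cells with at least 2 UMIs of Mki67 and Top2a, 12 held a Ly49 UMI. The remaining cell thus held most of the 48 Top2a and 32 Mki67 UMIs of the 12 Ly49-negative cells. Those 2 ratios therefore do not describe the Ly49-negative cells as a set. With 0.5 added to each count for ranking, the 5 genes placed highest were Khdc1a, Madd, Syne3, Lmbrd1 and Lyz2. The first 4 had 104 to 167 UMIs against 0 in the 12 cells, with lower limits of 0.54 to 1.23 on the log2 scale, so their place rests on those zeros. Lyz2 had a log2 ratio of 3.23 (1.87 to 5.11). Eomes averaged 296 CPM in Ly49-positive and 96.3 CPM in Ly49-negative marker-rich cells (log2 ratio 1.62, 0.68 to 2.76).

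The fixed lists were also read in this contrast, in which 10.2% of all tested genes were at least 2-fold higher and 9.27% lower. Of 15 NK maturation genes, 14 reached 30 UMIs, 2 were at least 2-fold higher and 4 at least 2-fold lower in the Ly49-positive cells (median 0.29). The 4 were Cd7 (-1.57, -1.90 to -1.23), Thy1 (-1.47, -2.21 to -0.64), Emb (-1.37, -1.94 to -0.76) and Ltb (-1.06, -1.62 to -0.44), and the 2 were Itgam (2.0, 0.95 to 3.32) and Cx3cr1 (1.71, 0.14 to 4.0). Of 8 innate lymphoid genes 1 reached the minimum, Itga1, with a log2 ratio of -2.90 (-4.06 to -1.60) and detection in 15 of 322 Ly49-positive and 5 of 12 Ly49-negative cells. Ikzf2 (-2.98, -3.99 to -1.87) was the 1 lower of 10 regulator genes and Eomes the 1 higher, shares close to those over all genes. With 12 cells on 1 side, few cells set these values.

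Over the 19 gates, the genes whose log2(CPM + 1) profile lay closest to the summed family, by Pearson's r over 9895 genes, were Gzma (0.88), Klrg1 (0.87), Klre1 (0.86), Cma1 (0.86), Klrb1a (0.85), Nrarp (0.84), Arl4d (0.83) and Ncr1 (0.82). For the 7 members with at least 100 UMIs, the closest gene was Gzma for Klra1, Klra6, Klra7 and Klra9 and Cma1 for Klra3, Klra4 and Klra8, with r from 0.90 to 0.95. The gates come from 1 pooled table and differ in depth and size, and Ncr1 was used to form them, so these values are a description.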

How the data were processed

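Spleen cells were profiled by droplet 3′ RNA sequencing. The authors deposited 1 table of raw UMI counts, 31017 genes by 7524 barcodes; the build was mm10 per the submitters' processing notes, and the counting program is not given in the sources used here. Barcodes with under 200 genes or over 10% mitochondrial UMIs were removed, 936 in all. The 6588 kept cells had a median of 5339 UMIs, with 709.35 at the 5th and 15842.75 at the 95th percentile. Gates were set on raw UMIs. Other cell classes were named from marker lists with at least 3 marker UMIs and 2 markers detected. Levels (CPM) are UMIs of a gene scaled to 1000000 UMIs of the gate. Thinning drew UMIs of each cell at random without replacement, in 1 draw per gate and depth.

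Intervals are 95% exact Poisson for levels, Clopper-Pearson for shares and exact conditional binomial for ratios, and cover counting error only. Those for levels and ratios treat each UMI as independent, although the UMIs of a member lie several to a cell. With 1 pooled sample there are no replicates and no tests. A gene was counted as changed past 4-fold (2-fold within NK cells) with at least 30 UMIs. Genes named in the split by Ly49 UMIs were the 5 highest and 5 lowest ratios with at least 100 UMIs. Members and lists were chosen with earlier results of these data known. The ratio step was tested on simulated data. Doublets were called with Scrublet in scanpy and kept, with their removal as an alternative. Coding windows were read from GENCODE vM21 transcripts on GRCm38. Python 3.11.15, numpy 2.4.6, scipy 1.17.1, scanpy 1.11.5, Biopython 1.88 and matplotlib 3.10.9 were used.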

Additional observations from a re-analysis of the deposited data

Results flagged for a closer look

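Ly49 UMIs were also found in barcodes that the filters removed. The 936 removed barcodes held 66 family UMIs in 16 barcodes. Of these barcodes 7 met the NK gate, and 4 of the 7 (57.1%, 18.4 to 90.1) held 43 family UMIs, which came to 2634 CPM at a median depth of 2513 UMIs.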

How the results depend on the processing

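Of the 109 alternative values computed, 52 stayed within the counting interval of the reported value and 57 did not. For the gene count, which has no interval, staying near the reported value was counted instead. Only the ratio of the NK gate to other cells could be called reversed, and it never was. The order of members was the same under all settings tried except a 5% mitochondrial maximum and the removal of cells with B cell transcripts, where Klra6 stood above Klra5. The share of NK-gate cells with a Ly49 UMI, 83.3% as reported, was 90.4% under the 5% maximum, 95.3% with 2 gate UMIs, 90.5% without cells with B cell transcripts, 75.1% at 1000 UMIs and 96.4% in marker-rich cells, a setting chosen after seeing the data. The share with at least 2 members, 74.9% as reported, was 80.8%, 86.4%, 81.5%, 54.5% and 87.4% under those 5 settings, 65.3% at 2000 UMIs and 66.7% when a member needed 2 UMIs. Activating members alone took 11.1% of cells at 1000 UMIs and 5.44% at 2000, since thinning loses members.

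The family level in the NK gate, 2269 CPM as reported, was 2658 CPM under the 5% maximum, 2352 CPM without Scrublet doublets, 3005 CPM with 2 gate UMIs, 2332 CPM with no Cd3 UMI, 2782 CPM without cells with B cell transcripts and 3042 CPM in marker-rich cells. Its ratio to other cells, 89.9 as reported, was 77.6, 111, 119, 59.8, 70.8 and 122 under those 6 settings and 74.9 with median-of-ratios size factors. Ccl5-high CD8 T cells held 105 CPM when T cells with Ncr1 or Klrb1c stayed in. The 1266 genes higher in Ly49-positive NK cells became 2137 with no minimum and 681 with at least 100 UMIs, since the number of genes tested changes, and 686 in marker-rich cells. Beyond these constructions the cause was not tested. No paired analysis was possible because the table's columns carry no sample or replicate number. Depth limits the calls of absent members, and the pooled table leaves the spread between mice unknown.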
